A study of Mus musculus with 4 samples.

Results

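Peritubular myoid cells are the flat, smooth-muscle-like cells that wrap each seminiferous tubule of the testis. A set of 10 genes of their contractile apparatus was followed by name: Acta2, Actg2, Myh11, Myl9, Mylk, Cnn1, Tagln, Lmod1, Synpo2 and Des. All 10 were among the 14984 genes listed. Ribosome profiling, the sequencing of mRNA fragments that translating ribosomes protect from nuclease, was applied to whole testes of mice at day 10. There were 2 control libraries and 2 libraries from germ-cell conditional Eif5 knockout mice (Eif5 cKO), which came from crossing mice with floxed Eif5 alleles (Eif5 fl/fl) to Stra8-Cre mice. Which of these alleles the controls carried is not given in the sources used here, nor whether replicate libraries stand for different animals. The p-values therefore cover only spread among these 4 samples, which may be technical. In limma that spread was taken mainly from a trend over all genes, and less from each gene's own replicates. Stra8-Cre acts in germ cells, so myoid cells keep Eif5 by design. The comparison asked how footprint levels of their contractile genes stood in a testis whose germ cells had been targeted.

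In smooth muscle, calcium-loaded calmodulin activates myosin light chain kinase, which phosphorylates the regulatory light chain and lets myosin pull on actin filaments. Calponin, transgelin, leiomodin, desmin and related proteins restrain, assemble or anchor those filaments. Serum response factor (SRF) with its coactivators of the myocardin family drives many of these genes through a DNA element called the CArG box. In the testis the same apparatus lets myoid cells squeeze the tubule and move its contents, but smooth muscle of the blood vessels uses the same genes. In whole tissue neither source can be separated, and fewer cells of a type cannot be told apart from less translated RNA per cell. Footprint counts alone also do not separate the amount of an mRNA from how strongly it is translated.

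No contractile gene was called different between Eif5 cKO and control. Of the 10 genes, 9 had enough reads to test, and 0 were called at an adjusted p under 0.05 by limma, where 0.678% of the 12095 genes tested were called (0.604% lower and 0.0744% higher in Eif5 cKO). The count was also 0 by edgeR's quasi-likelihood test and by DESeq2, which called 0.761% and 0.463% of all genes tested. In limma 0 of the 9 had an unadjusted p under 0.05, against 10.6% of all genes. The values of the groups overlapped for all 10 genes, whereas groups did not overlap for 40.8% of all genes tested. The clearest feature of the set was a difference between the 2 Eif5 cKO libraries. Of the 10 genes, 8 had their lowest value in Eif5 cKO replicate 2, against 23.2% of all genes tested. The 10 genes serve the same cell types, so they do not count as independent observations of that library. Eif5 cKO replicate 1 was at or above the lower control for 9 of 10, and the share of all genes for which this held was not counted. Values are reads divided by a size factor of the library, and they are not compared between genes because no coding lengths were used.

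**Figure D1:**
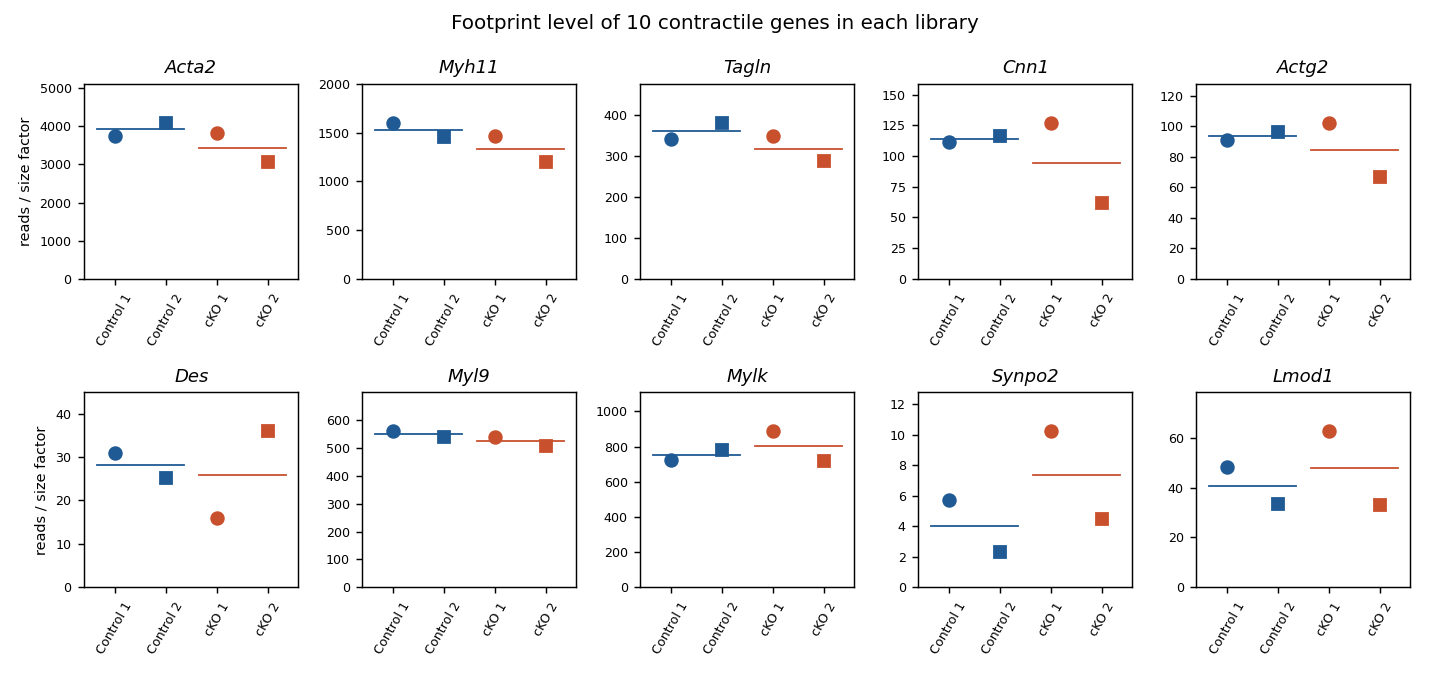
Footprint level (reads divided by the library's size factor, linear axis from 0) of each of the 10 contractile genes in control (blue) and Eif5 cKO (orange) libraries; circles are replicate 1, squares replicate 2, and lines the mean of each group. For 8 of the genes, Acta2 and Cnn1 among them, the Eif5 cKO replicate 2 square is the lowest of the 4 points.

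The libraries held 2225964 to 2934609 reads assigned to genes. Neither pair of replicates agreed within sampling noise: chi-square over its degrees of freedom was 8.12 for the control pair and 10.6 for the Eif5 cKO pair, over genes with at least 20 reads in the pair. Eif5 itself, the GTPase-activating factor of translation initiation, stood at 365 and 304 in the controls, and the Eif5 cKO libraries held 173 and 266. Both Eif5 cKO values lay below both controls, but the difference did not pass (log2 fold change -0.63, SE 0.25; limma adjusted p = 0.319). The value covers the whole gene and the whole tissue, so the deleted part in germ cells was not read separately. Markers of the tissue were present: the summed CPM (reads per 1000000 of the library) was 747 to 1220 for 9 Leydig cell genes and 425 to 553 for 10 endothelial genes.

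Some sequence around these genes was examined because SRF sites are their best known shared feature. RefSeq promoter windows (GRCm38.p6, 250 bases before to 50 bases after a transcript start) were matched for 7 of the 10 genes; Myh11, Tagln and Actg2 were not matched. The CArG box, a pattern of 10 bases that reads the same way on both strands, was searched exactly and with 1 base off. An exact box was in 1 of the 7 windows, that of Myl9, and in 1.81% of 27025 genes with a window. At least 1 match, exact or 1 base off, was in 3 of the 7 windows (Acta2, Myl9 and Lmod1) and in 23.8% of all genes with a window. Each of the 3 held a pair of matches, which 4.24% of all genes did. For Acta2, the start used for the window lies inside the gene span given below, and so do both of its matches. The Mylk window (34784700 to 34784999) also lies inside its gene span, so the outer start of Mylk was not searched. Each stretch is shown 5′ to 3′ on the gene's strand with the 10-base match in capitals, and the distance is that of its first base upstream of the start used for the window:
Acta2, 84 bases upstream, chr19:34255438-34255467, minus strand: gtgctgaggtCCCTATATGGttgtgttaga
Acta2, 34 bases upstream, chr19:34255388-34255417, minus strand: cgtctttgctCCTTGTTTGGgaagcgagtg
Myl9, 161 bases upstream, chr2:156775293-156775322, plus strand, the exact match: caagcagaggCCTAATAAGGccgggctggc
Myl9, 99 bases upstream, chr2:156775355-156775384, plus strand: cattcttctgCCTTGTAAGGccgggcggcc
Lmod1, 189 bases upstream, chr1:135324614-135324643, plus strand: gcccccttgtCTTTAAAAGGctaaactgct
Lmod1, 164 bases upstream, chr1:135324639-135324668, plus strand: ctgctctgtaCTAAATTTGGtcacgcagcg

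A match is a string of letters and was not tested as a binding site, and these data measured footprints, not promoters. Whether the 3 genes with such a pair share a profile was not tested. Eif5 cKO replicate 2 was lowest for all 3. The log2 ratio of Eif5 cKO replicate 2 to replicate 1 was -0.33 for Acta2, -0.09 for Myl9 and -0.89 for Lmod1. For Lmod1 it rests on 37 and 55 reads. Cnn1 and Actg2, whose ratios were -1.03 and -0.62, had no match in the window and no window, respectively.

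The actins form the thin filament. Acta2 (chromosome 19, 34240336 to 34255585, GRCm38.p6) encodes smooth muscle alpha-actin, the standard marker of myoid cells. It had values of 3752 and 4099 in control replicates 1 and 2 and of 3834 and 3055 in Eif5 cKO replicates 1 and 2. The first Eif5 cKO library lay between the controls, and the second lay below both. The means were 3925 ± 246 and 3445 ± 551 (SD, n = 2 each), for a log2 fold change of -0.20 (SE 0.26; limma adjusted p = 0.846). As a ratio, its 95% interval ran from 0.606 to 1.26 of control. Acta2 alone supplied 51.2% to 54.4% of the reads of the 10 genes in each library.

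Actg2 (chromosome 6, 83512909 to 83536251) encodes smooth muscle gamma-actin, the enteric form. Its values were 90.6 and 96.4 in the controls and 102 and 66.4 in Eif5 cKO, and the Eif5 cKO libraries were thus the highest and the lowest of the 4. The log2 fold change was -0.18 (SE 0.32; limma adjusted p = 0.892), with a ratio interval of 0.560 to 1.39. Actin genes have near-identical copies, and how reads that fit several genes were handled is not given in the sources used here. Their counts are therefore uncertain: Actg1, the cytoplasmic gamma-actin of nearly all cells, was listed at only 4.08 to 5.38 in the 4 libraries, beside 6930 to 8240 for the cytoplasmic beta-actin gene Actb. Both were named after their values were seen. The muscle actins of other tissues, open to the same uncertainty, read 10.3 to 17.1 for skeletal Acta1 and 13.9 to 24.1 for cardiac Actc1.

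Myosin and its switch came next. Myh11 (chromosome 16, 14194527 to 14292188), the smooth muscle myosin heavy chain, stood at 1603 and 1459 in the controls and 1470.0 and 1194 in Eif5 cKO. Again one Eif5 cKO library lay within the control range and the other below it, with means of 1531 ± 102 and 1332 ± 195 (SD, n = 2 each). The log2 fold change was -0.21 (SE 0.23; limma adjusted p = 0.808) with a ratio interval of 0.627 to 1.20.

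Myl9 (chromosome 2, 156775408 to 156781657), the regulatory light chain that the kinase phosphorylates, was the steadiest of the set. Its values were 558 and 537 in the controls and 538 and 506 in Eif5 cKO, a log2 fold change of -0.07 (SE 0.22; limma adjusted p = 0.948). Mylk (chromosome 16, 34745199 to 35002436) encodes myosin light chain kinase, in smooth muscle and longer non-muscle forms that the summed value does not separate. It had 725 and 781 in the controls and 886 and 720 in Eif5 cKO. Those Eif5 cKO values were the highest and the lowest of the 4, and the log2 fold change was 0.09 (SE 0.22; limma adjusted p = 0.932). The ratio intervals were 0.697 to 1.30 for Myl9 and 0.775 to 1.46 for Mylk.

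Tagln and Cnn1 encode actin-binding proteins, transgelin and calponin, that mark differentiated smooth muscle. Tagln (chromosome 9, 45929628 to 45936058) read 342 and 381 in the controls and 348 and 287 in Eif5 cKO, with a log2 fold change of -0.19 (SE 0.23; limma adjusted p = 0.830) and a ratio interval of 0.630 to 1.22. Its span overlaps that of the protease gene Pcsk7, which stood at 22.7 to 39.2, and whether counting used strand is not given in the sources used here. Cnn1 (chromosome 9, 22099221 to 22109221) read 112 and 116 in the controls and 127 and 61.9 in Eif5 cKO. The controls lay close together, while the second Eif5 cKO library held less than the first by a log2 ratio of -1.03. The means were 114 ± 2.92 and 94.6 ± 46.2 (SD, n = 2 each), and the log2 fold change of -0.35 (SE 0.32) had the smallest p of the set, with a limma adjusted p of 0.743. Its ratio interval was 0.496 to 1.23. Without Eif5 cKO replicate 1 the log2 fold change of Cnn1 was -0.87 (limma adjusted p = 0.312), and without Eif5 cKO replicate 2 it was 0.16.

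The remaining genes organise filaments and rest on few reads. Lmod1 (chromosome 1, 135324813 to 135368065) encodes leiomodin, which starts actin filaments in smooth muscle. It read 48.1 and 33.3 in the controls and 62.5 and 33.2 in Eif5 cKO, and each group held a high and a low library. Its log2 fold change was 0.18 (SE 0.44; limma adjusted p = 0.927), and the ratio interval ran from 0.614 to 2.10. Des (chromosome 1, 75360292 to 75368579), the muscle intermediate filament desmin, ran against the others within the Eif5 cKO group. It read 31.0 and 25.3 in control, 15.9 in Eif5 cKO replicate 1 and 35.9 in replicate 2, from 14 and 40 reads in the last pair. Its log2 fold change was -0.22 (SE 0.55; limma adjusted p = 0.931), with a ratio interval of 0.399 to 1.86. Des was -0.78 without Eif5 cKO replicate 2 and 0.35 without replicate 1.

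Synpo2 (chromosome 3, 123076519 to 123236168), a synaptopodin-family protein of actin bundles, did not pass the filter on low counts. It had 7 and 2 reads in the controls and 9 and 5 in Eif5 cKO. The exact 95% Poisson intervals, which cover counting error only, were 2.81 to 14.4, 0.242 to 7.22, 4.12 to 17.1 and 1.62 to 11.7 reads. These intervals overlapped, which is not a test of the groups. Fitted without the filter, the log2 fold change of Synpo2 was 0.74 with an interval of -1.37 to 2.85, so no difference was detected.

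**Figure D2:**
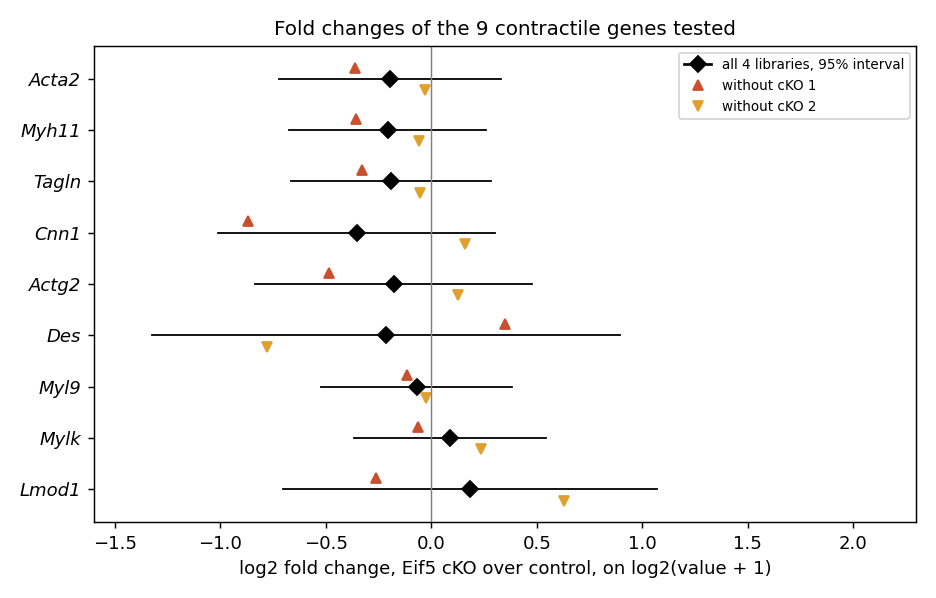
Log2 fold change of Eif5 cKO over control for the 9 contractile genes tested, on the log2(value + 1) scale; black diamonds with bars are the estimate from all 4 libraries and its 95% interval, and triangles the estimates without either Eif5 cKO library. All 9 intervals include 0, and for Cnn1, Actg2, Des, Mylk and Lmod1 the triangles lie on opposite sides of 0.

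Of the 9 genes, 7 had a negative and 2 a positive log2 fold change, with a median of -0.19, against a median of 0.003 and a negative sign for 49.7% of all genes tested. This median depended on which Eif5 cKO library was kept. The median was -0.024 without Eif5 cKO replicate 2 and -0.33 without Eif5 cKO replicate 1. Without control replicates 1 and 2 it was -0.14 and -0.13. For each gene, the full estimate lies midway between those without either Eif5 cKO library. These fits therefore cannot show which of the 2 libraries was unusual. The log2 ratio of Eif5 cKO replicate 2 to replicate 1 was negative for 9 of the 10 genes, Des being the exception, with a median of -0.30 over the 9 tested. The same ratio had a median of 0.003 over all genes tested. Between the 2 controls the median log2 ratio of replicate 2 to replicate 1 was 0.05 over the 9 genes. In all 9, the Eif5 cKO libraries differed from each other more than the controls did, which held for 55.0% of all genes tested.

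**Figure D3:**
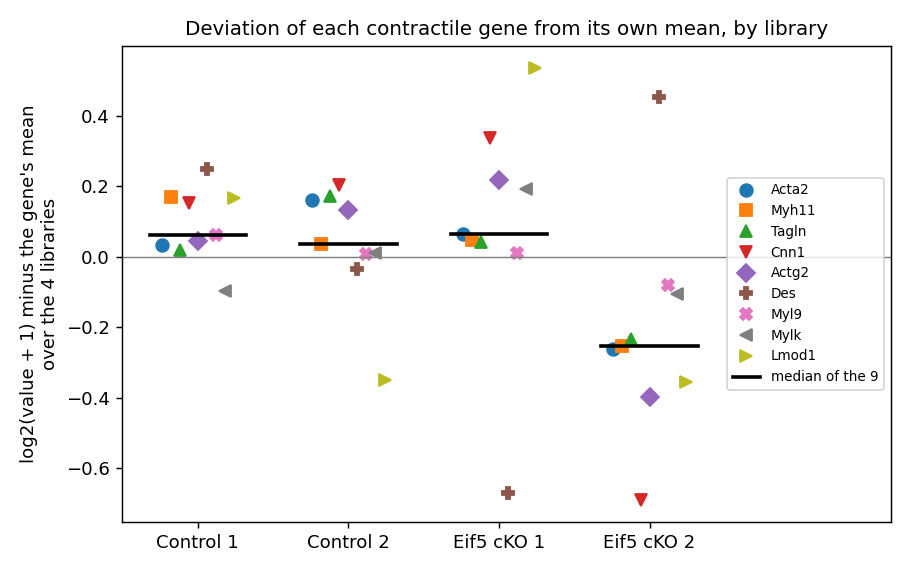
Deviation of log2(value + 1) from the gene's own mean over the 4 libraries, for the 9 contractile genes tested (symbols) with their median (black line). The median lies at 0.06 and 0.04 in the controls, 0.07 in Eif5 cKO replicate 1 and -0.25 in Eif5 cKO replicate 2, where Des alone is above 0.

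The 10 genes together took 0.303% (95% Wilson interval 0.297% to 0.310%) and 0.295% (0.288% to 0.302%) of the reads in control replicates 1 and 2. In Eif5 cKO replicates 1 and 2 they took 0.283% (0.277% to 0.290%) and 0.239% (0.233% to 0.245%). The intervals cover counting error only, and the group means were 0.299% ± 0.00616 and 0.261% ± 0.0314 (SD, n = 2 each). On this scale of library totals both Eif5 cKO libraries lay below both controls, though Eif5 cKO replicate 1 and control replicate 2 had overlapping intervals. Without Acta2 the shares were 0.147% and 0.134% in the controls and 0.136% and 0.117% in Eif5 cKO, and the groups overlapped. Gene by gene on library totals, Eif5 cKO lay below control with no overlap for 4 of the 10 (Acta2, Myh11, Tagln and Myl9), against 22.7% of all genes tested (40.2% in either direction). On the deposited values these 4 overlapped, and limma called 0 of the 9 on library totals too. With 2 libraries against 2, the smallest two-sided p that exact permutation of the labels allows is 0.333.

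Partners of the contractile genes showed no called change either. Of 19 tested thin filament and regulatory partners, 0 were called, 11 had a positive sign and the median log2 fold change was 0.15. Calmodulin gene Calm2 read 228 and 287 in the controls and 115 and 195 in Eif5 cKO (-0.77, SE 0.27; limma adjusted p = 0.231). Myl6, the essential myosin light chain, read 188 and 153 against 239 and 228 (0.46, SE 0.26; limma adjusted p = 0.543). Calm2 passed in the fit without Eif5 cKO replicate 2. Among 25 genes of dense plaques and integrin anchorage, which tie filaments to the membrane, 0 were called and the median was 0.06. The intermediate filament gene Synm (62.0 and 58.5 against 118 and 93.3; limma adjusted p = 0.353) and talin, Tln1 (291 and 226 against 425 and 333; limma adjusted p = 0.384), had the smallest p there. For both, Eif5 cKO lay above control with no overlap, as for 8 of the 25 genes and 20% of all genes tested. It lay below with no overlap for 2 of the 25, against 20.9% of all genes tested. Synm encodes synemin, a partner of desmin in muscle filaments.

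For 18 SRF and myocardin regulators the count called was 0 and the median 0.08. Gata6 (38.4 and 43.6 in control, 85.2 and 74.5 in Eif5 cKO; limma adjusted p = 0.319), a GATA factor of several testis cell types, and Foxo4 (49.0 and 41.3 against 69.3 and 72.7; limma adjusted p = 0.571) led by p. The core factors, named after their values were seen, did not pass. Srf read 32.6 and 52.8 in the controls and 46.6 and 31.4 in Eif5 cKO. Myocd, the myocardin gene, read 33.5 and 14.9 against 22.7 and 25.1. The genes of the myocardin-related factors, Mkl1 (89.0 and 93.0 against 86.3 and 55.6) and Mkl2 (140 and 163 against 112 and 121), had both Eif5 cKO libraries below both controls, with log2 fold changes of -0.39 (SE 0.34) and -0.37 (SE 0.28). Their limma adjusted p values were 0.730 and 0.682. Of the 18 genes in this list, 3 lay below control with no overlap and 3 above, against 20.9% and 20% of all genes tested.

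The non-muscle counterparts of the contractile genes, found in most cells, had a median of 0.08 over 15 tested, with 11 positive signs and 0 called. Their leading genes were Myl12b, a non-muscle regulatory light chain (0.45, SE 0.27; limma adjusted p = 0.595), and the calponin gene Cnn3 (0.35, SE 0.22; limma adjusted p = 0.627). The 19 receptors and calcium-handling genes of contraction had 0 called and a median of 0.03. Itpr1, a calcium release channel (0.48, SE 0.25; limma adjusted p = 0.506), and Pde5a, which degrades cyclic GMP (0.62, SE 0.41; limma adjusted p = 0.629), led that list. Of 18 signalling genes tested that act in or on peritubular cells, 0 were called, with a median of 0.18. Smo, the transducer of hedgehog signals (0.70, SE 0.27), and Inhba, the activin beta-A subunit (0.71, SE 0.28), had limma adjusted p values of 0.302 and 0.304. Inhba passed in the fit without Eif5 cKO replicate 2.

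Markers of other cells that hold contractile genes were read beside the set. The vascular smooth muscle and pericyte list, leaving Myh11 out, had 0 of 7 called and a median of 0.23. Its summed level was 588 and 683 CPM in the controls and 674 and 541 in Eif5 cKO, so it too was lowest in Eif5 cKO replicate 2, as the 10 contractile genes were. The endothelial sum was likewise lowest there, at 425, against 553 in Eif5 cKO replicate 1 and 456 and 474 in control. Gene by gene, 3 of the 7 vascular and 3 of the 10 endothelial genes had their lowest value in that library, beside 8 of the 10 contractile genes. The median log2 ratio of Eif5 cKO replicate 2 to replicate 1 was -0.34 for the 7 vascular genes and -0.51 for 10 endothelial genes. A negative ratio was not particular to vessels: it was -0.31 for 18 Sertoli cell genes. Of those 18, 14 were highest in Eif5 cKO replicate 1 and 2 were lowest in replicate 2. The same median ratio was 0.16 for 10 interstitial stroma genes and 0.12 for 8 Leydig cell genes. The part of vessel content in the profile of the contractile genes was not tested. Pericyte genes Cspg4 (80.0 and 98.7 against 168 and 90.6, limma adjusted p = 0.637) and Rgs5 (76.7 and 99.9 against 62.5 and 67.3, limma adjusted p = 0.703) led the vascular list by p. Emcn (log2 fold change -0.76, limma adjusted p = 0.671) and Cldn5 (-0.50, limma adjusted p = 0.723) led the endothelial list. Both were negative, while 7 of the 10 endothelial genes had a positive sign.

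Skeletal and cardiac muscle markers, leaving Des out, summed to 69.2 and 80.0 CPM in the controls and 80.5 and 83.4 in Eif5 cKO. Of the 9 tested, 0 were called; Myh8, a perinatal skeletal myosin, read 16.3 and 44.8 against 11.4 and 4.49 (limma adjusted p = 0.356), and Myh7, the slow myosin, 8.16 and 20.7 against 30.7 and 23.3 (limma adjusted p = 0.628).

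Other cell types of the testis had medians on both sides of 0. Of 21 meiotic prophase genes, 13 fell in limma, with a median of -1.49; Sycp1 and Stag3 had the smallest p. That count was 0 and 3 without control replicates 1 and 2, and 12 and 15 without Eif5 cKO replicates 1 and 2, with medians from -1.58 to -1.28. Undifferentiated spermatogonia genes had 0 of 12 called and a median of -0.09, with Taf4b (limma adjusted p = 0.322) and Sohlh1 (limma adjusted p = 0.630) first by p. Among somatic lists, 1 of 18 Sertoli cell genes rose in limma (Hsd17b1; Inha was next), with a median of 0.34. Hsd17b1 did not pass in DESeq2, where Inha did, nor with scaling on the Sertoli list nor when either control or Eif5 cKO replicate 1 was left out. Of 8 Leydig cell genes 0 passed, with a median of 0.71 led by Cyp11a1 and Star. Cyp11a1 passed without Eif5 cKO replicate 1, and Star, Insl3 and Cyp17a1 passed without Eif5 cKO replicate 2. All 10 interstitial stroma genes had a positive sign, 0 were called and their median was 0.21. Without control replicates 1 and 2, respectively, 6 and 10 were positive, with medians of 0.08 and 0.46. Without Eif5 cKO replicates 1 and 2 the numbers were 7 and 9, with medians of 0.24 and 0.32. Igf1, a growth factor gene of interstitial stroma, was among the 10 (limma adjusted p = 0.532). The contractile genes had a median of -0.19 beside these, and no test of the difference between lists was made. The vascular median, 0.23, became -0.063 with a filter of 50 reads in 2 libraries and -0.23 without Eif5 cKO replicate 1. The endothelial median, 0.10, became -0.095 with control replicate 1 left out and -0.17 with Eif5 cKO replicate 1 left out. Scaling on the Sertoli list lowered the median of all genes tested from 0.003 to -0.37, and the list medians moved down with it. Those of the stroma, vascular and endothelial lists became negative, while the Leydig median stayed positive at 0.33. The Sertoli median, -0.05, was near 0 because that list, which includes Hsd17b1, set the scale.

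**Figure D4:**
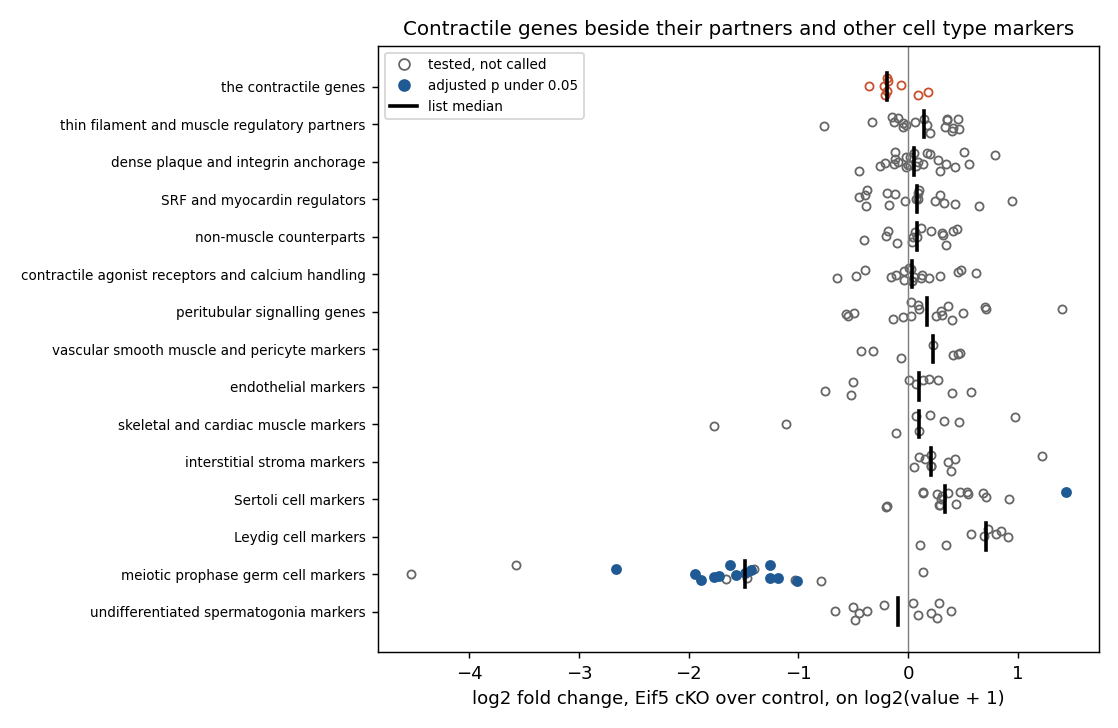
Log2 fold change of Eif5 cKO over control for every tested gene of each list, on the log2(value + 1) scale; open circles did not pass, filled circles had a limma adjusted p under 0.05, and black bars are list medians. The contractile genes (top) sit between -0.35 and 0.18 with a median of -0.19, while 13 meiotic prophase genes lie far to the left as filled circles.

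Scaling the libraries on 19 Sertoli cell genes moved the median of all genes tested to -0.37. On that scale all 9 contractile genes had a negative sign and a median of -0.57, which is -0.20 relative to all genes, close to the -0.19 on the deposited values. Acta2 (-0.58, limma adjusted p = 0.169) and Myh11 (-0.59, limma adjusted p = 0.251) then had an unadjusted p under 0.05, and 0 of the 9 were called. With this shift, limma called 90 of the 12095 genes tested lower in Eif5 cKO and 0 higher. The share of all genes with an unadjusted p under 0.05 was not counted on this scale, so those of Acta2 and Myh11 lack a background. The stroma and vascular medians became -0.17 and -0.13.

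Genes outside these lists with the profile most like that of the set were found by the distance between centred log2 values over the 4 libraries. Strn (distance 0.013), Ppwd1 (0.022), Gltscr2 (0.046), Zfp719 (0.050) and Ptpn1 (0.051) came first of 9630 genes with a mean of at least 10 CPM. Strn, the striatin gene, read 322 and 315 in the controls and 325 and 262 in Eif5 cKO. With only 4 libraries such likeness is common: 601 of these genes, or 6.24%, were as close to the set's mean profile as its median member was, at a distance of 0.242.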

How the data were processed

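Ribosome footprints of whole testes were counted per gene in 4 libraries, grouped by sample title. Bowtie2, STAR, featureCounts and GRCm38 are listed in the submitters' processing notes with no version; how strand and multi-mapping reads were treated is not given in the sources used here. The deposited signal values are not whole numbers, but 100% were whole multiples of 1 step per library (relative tolerance 1e-06), and the divisors (0.871 to 1.23) equal median-of-ratios size factors, so whole reads were recovered.

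limma 3.58.1 (R 4.3.3) with an intensity trend was fitted to log2(value + 1), group only, over 12095 genes passing edgeR 4.0.16 filterByExpr (minimum count 10), with two-sided tests and Benjamini-Hochberg adjustment. Folds on this scale understate changes of low genes. Each gene's variance was moderated toward the trend over all genes, with 37.0 prior against 2 residual degrees of freedom. The SE and p of a gene thus rest mainly on that trend and less on its own replicates. Alternatives used edgeR, DESeq2 1.42.0, other scalings, pseudocounts and filters, each library left out, and a replicate block. The fits were tested on simulated data. The members, gene lists and alternatives were chosen with earlier results of these data known. Genes named were the members, Eif5, the 2 with the smallest p per list, any called gene (of the 13 meiotic genes only the first 2) and the 5 nearest in profile. 1 gene that this rule names is not reported here. RNA libraries were not analysed here.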

Additional observations from a re-analysis of the deposited data

How the results depend on the processing

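The count of contractile genes called stayed at 0 under all 14 alternatives run. The smallest adjusted p of any of the 9 genes under them was 0.169, for Acta2 with the libraries scaled on the Sertoli cell list. The median log2 fold change, -0.19 on the deposited values, was -0.57 on that scaling, and between -0.24 and -0.15 under the other alternatives that kept all libraries. Leaving out each library in turn gave -0.33 to -0.024. Signs reversed, in no case with a call, for Mylk (-0.29) and Lmod1 (-0.19) on the Sertoli scaling. Without control replicate 2 Lmod1 was -0.08. Without Eif5 cKO replicate 1 and without Eif5 cKO replicate 2, respectively, Cnn1 was -0.87 and 0.16, Actg2 -0.49 and 0.13, Des 0.35 and -0.78, Mylk -0.062 and 0.24, and Lmod1 -0.26 and 0.63. With the replicate number as a block the count was 0, the median was -0.19 and the smallest adjusted p 0.824. The deviations of same-numbered libraries had a correlation of -0.05 across genes, so the numbers gave no sign of pairing. The total of called genes was 82, and 10, 20, 127 and 346 without control replicates 1 and 2 and Eif5 cKO replicates 1 and 2. Depth limits Synpo2, Des and Lmod1, whose libraries held 2 to 59 reads each.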
